A study of Mus musculus with 6 samples.

Results

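The proteasome genes of eosinophils were compared between cultures given extracellular vesicles (EVs) of activated TH2 cells and cultures given a sham control. The genes were taken by name: a symbol that starts with Psma, Psmb, Psmc, Psmd or Psme, without the immunoproteasome subunits Psmb8, Psmb9 and Psmb10 and without pseudogene names. Of the 16254 genes with estimated counts, 47 had such a prefix and 43 were members. The genes left out were the 3 immunoproteasome subunits and the pseudogene Psmb7-ps2. The names do not all stand for constitutive subunits, since Psma8 and Psmb11 belong to the proteasomes of testis and thymus, Psmd5, Psmd9 and Psmd10 are assembly chaperones, and Psmc3ip and Psme3ip1 are not subunits at all.

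Eosinophils were differentiated from the bone marrow of C57BL/6 mice with FLT3 ligand and stem cell factor and then IL-5, and all 6 libraries share this genotype and differentiation. The EV-treated cultures received 5e9 EVs/mL from TH2 cells restimulated through the T-cell receptor. The sham-treated cultures received an equal volume of medium that had held no cells and had gone through the same isolation. Poly(A) RNA was sequenced after 24 h from 3 biological replicates of each group. In the study's own assays, such EVs raised the survival of eosinophils at 24 h over untreated cells. Whether a difference in survival has a part in the values given here was not tested. The labels do not give the age or sex of the mice, and the study's methods give the age only as a range of weeks.

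The proteasome degrades proteins that carry ubiquitin. Its 20S core is a barrel of outer alpha rings (Psma genes) and inner beta rings (Psmb genes), in which Psmb5, Psmb6 and Psmb7 hold the chymotrypsin-like, caspase-like and trypsin-like active sites. The 19S cap recognizes ubiquitin and unfolds substrates, with a base of ATPases (Psmc genes) and scaffold or receptor subunits, and a lid (Psmd genes). Other activators can replace the cap, namely PA28-alpha and PA28-beta (Psme1, Psme2), PA28-gamma (Psme3) and PA200 (Psme4). In immune cells, interferons and other cytokines raise Psmb8, Psmb9 and Psmb10, which take the places of Psmb5, Psmb6 and Psmb7 in newly built immunoproteasomes. Transcription of most subunit genes can be raised together by NRF1 (Nfe2l1), which binds antioxidant response elements in their promoters.

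Only 3 of the 42 members tested passed the test at an adjusted p under 0.01: Psme4 and Psme2 rose and Psmb6 fell. The bases just upstream of these 3 genes are given here, from RefSeq promoters on build GRCm38.p6, up to the first base annotated as transcribed in either RefSeq or GENCODE. Each reads from 5′ to 3′ on the strand of its gene. Capitals mark the core of the antioxidant response element, TGANNNNGC, and the stretches lie at chr11:70525107-70525356 (plus strand, Psmb6), chr14:55591114-55591271 (minus strand, Psme2) and chr11:30771525-30771725 (plus strand, Psme4).
Psmb6: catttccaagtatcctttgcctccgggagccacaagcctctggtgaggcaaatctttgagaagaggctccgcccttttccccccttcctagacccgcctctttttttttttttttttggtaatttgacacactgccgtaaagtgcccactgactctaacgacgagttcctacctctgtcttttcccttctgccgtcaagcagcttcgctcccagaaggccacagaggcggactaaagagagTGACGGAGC
Psme2: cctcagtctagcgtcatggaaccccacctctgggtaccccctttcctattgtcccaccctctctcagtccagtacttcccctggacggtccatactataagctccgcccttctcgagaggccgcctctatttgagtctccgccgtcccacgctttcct
Psme4: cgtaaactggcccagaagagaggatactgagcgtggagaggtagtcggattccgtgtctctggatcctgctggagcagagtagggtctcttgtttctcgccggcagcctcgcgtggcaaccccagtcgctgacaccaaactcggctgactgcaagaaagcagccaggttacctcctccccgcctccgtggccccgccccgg

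In Psme2 and Psme4 a match to the core lay within the bounds of the GENCODE gene. It is shown in a stretch of 30 bases at chr14:55591069-55591098 for Psme2 and at chr11:30771758-30771787 for Psme4, where the match is on the opposite strand. In Psme1, the partner of Psme2, the stretch at chr14:55578493-55578522 (plus strand) is shown because it holds the core of an interferon-stimulated response element (ISRE) on the opposite strand, again in capitals. This match begins 9 bases after the RefSeq start and also lies within the bounds of the GENCODE gene.
Psme2: cagcccctgaTGATGAAGCcaacaccgccc
Psme4: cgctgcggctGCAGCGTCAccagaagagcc
Psme1: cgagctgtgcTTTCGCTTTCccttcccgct
Of the 43 members, 36 had a RefSeq promoter window of 300 bases, which runs from 250 bases before to 50 after the start. The core TGANNNNGC, searched on both strands, was found for 21 of the 36, or in 57.5% of their 40 windows, against 41.3% of all 32851 windows. The core of the ISRE (GAAA, any 2 bases, GAAA) was found for Psmb3, Psmd4, Psmd9 and Psme1, or in 10% of the members' windows against 3.44% of all. A CCAAT box was found in 37.5% of the members' windows against 37.4% of all, and the interferon-gamma activated site TTCNNNGAA in that of Psmd2 alone, against 8.3% of all. Neither the CCAAT box, nor the ISRE core, nor the interferon-gamma activated site was found in the windows of Psmb6, Psme2 and Psme4. A match of letters is a description of the sequence, and binding was not measured.

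The libraries held between 23697620 and 37874426 estimated counts, and the members took between 0.216% and 0.249% of them. Sham replicate 1 stood apart from the other sham-treated libraries. Of the 31 member subunits of the 20S core and the 19S cap with high counts, 7 were lower in it by over 0.3 on the log2 scale than in the other sham-treated libraries (Psmc6, Psmb6, Psma4, Psmc1, Psmd2, Psmb2 and Psmd1). The median coefficient of variation of these 31 subunits was 10.03% in sham- and 4.35% in EV-treated libraries. Markers of eosinophils and of other cells also moved with treatment. They are counted here at an adjusted p under 0.01, at which 12.1% of all genes tested were higher and 11.6% lower. Of 10 eosinophil markers, led by Prg2 and Epx, 7 were higher with EVs, with summed normalized counts of 927679 to 1169540 in sham- and 1325040 to 1482380 in EV-treated libraries. Of 10 macrophage markers, 8 were lower and 1, Adgre1, was higher, and eosinophils express Adgre1 too. In replicates 1 to 3 the macrophage sum was 57015, 82756 and 76891 in sham and 41403, 47080.3 and 46366 in EV-treated libraries, lowest in replicate 1 of each group. Of the 6 mast cell and basophil markers tested, 4 were higher (sums of 4017 to 5220 and 8276 to 10137), and Tpsb2 was at 0 in all sham-treated libraries. Of 9 neutrophil markers, 2 were higher and 4 lower (15908 to 18525 and 17491 to 20840). None of the 7 dendritic cell and 2 T cell markers tested was called. The dendritic cell sums were 6472 to 9092 and 6129 to 8003, with Siglech at 0 in 5 of the 6 libraries, and the T cell sums were 83.8 to 230.4 and 104 to 123, with Cd2 at 0 in all sham-treated libraries. Whether these cells have a part in the values of the proteasome genes was not tested.

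Among the 42 members tested, 2 were higher and 1 was lower, or 7.14% in all, where 12.1% of the 13498 genes tested were higher and 11.6% lower (edgeR's quasi-likelihood test, adjusted over all genes tested). Only Psma8, a testis subunit with 1, 21 and 7 estimated counts in sham and 2, 13 and 3 in EV-treated libraries, did not pass the filter on low counts. The median log2 fold change (log2FC) of EV- over sham-treated libraries was -0.02 over the members and -0.01 over all genes tested. The members moved little in either direction, with a median absolute log2FC of 0.135 against 0.3005 over all genes. Their median standard error (SE) was also smaller, 0.0896 against 0.137. The 95% interval of the log2FC lay within 0.5 of no change for 33 of the 42 members, against 4947 of the 13498 genes. Most members had high counts. Among the 39 with a mean normalized count of at least 400, a limit set after the values were seen, 3 (7.69%) were called in either direction, against 31.4% of the 7714 genes at that level. In bulk RNA, fewer cells of a type and less RNA per cell cannot be told apart.

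At the looser threshold of an adjusted p under 0.05, 6 members were higher (Psme4, Psme2, Psme1, Psme2b, Psma2 and Psme3ip1) and 3 were lower (Psmb6, Psmd2 and Psmb7). These are 14.3% and 7.14% of the members, where 17.5% and 18.4% of all genes tested passed. All EV-treated libraries lay above all sham-treated libraries in 8 members (19.05%) and below them in 7 (16.7%), against 24.8% and 24.7% of all genes. Of the 32 member subunits of the 20S core and 19S cap tested, 0 were higher and 1 was lower, and 28 had an interval within 0.5 of no change. At an unadjusted p under 0.05 there were 2 higher and 4 lower, while DESeq2 called 0 higher and 2 lower and limma-voom 0 higher and 1 lower. Over all 13498 genes tested, DESeq2 called 2001 higher and 2000 lower, and limma-voom 1706 higher and 1548 lower. The share of all genes at an unadjusted p under 0.05 was not computed, so counts at that level have no background here.

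**Figure D1:**
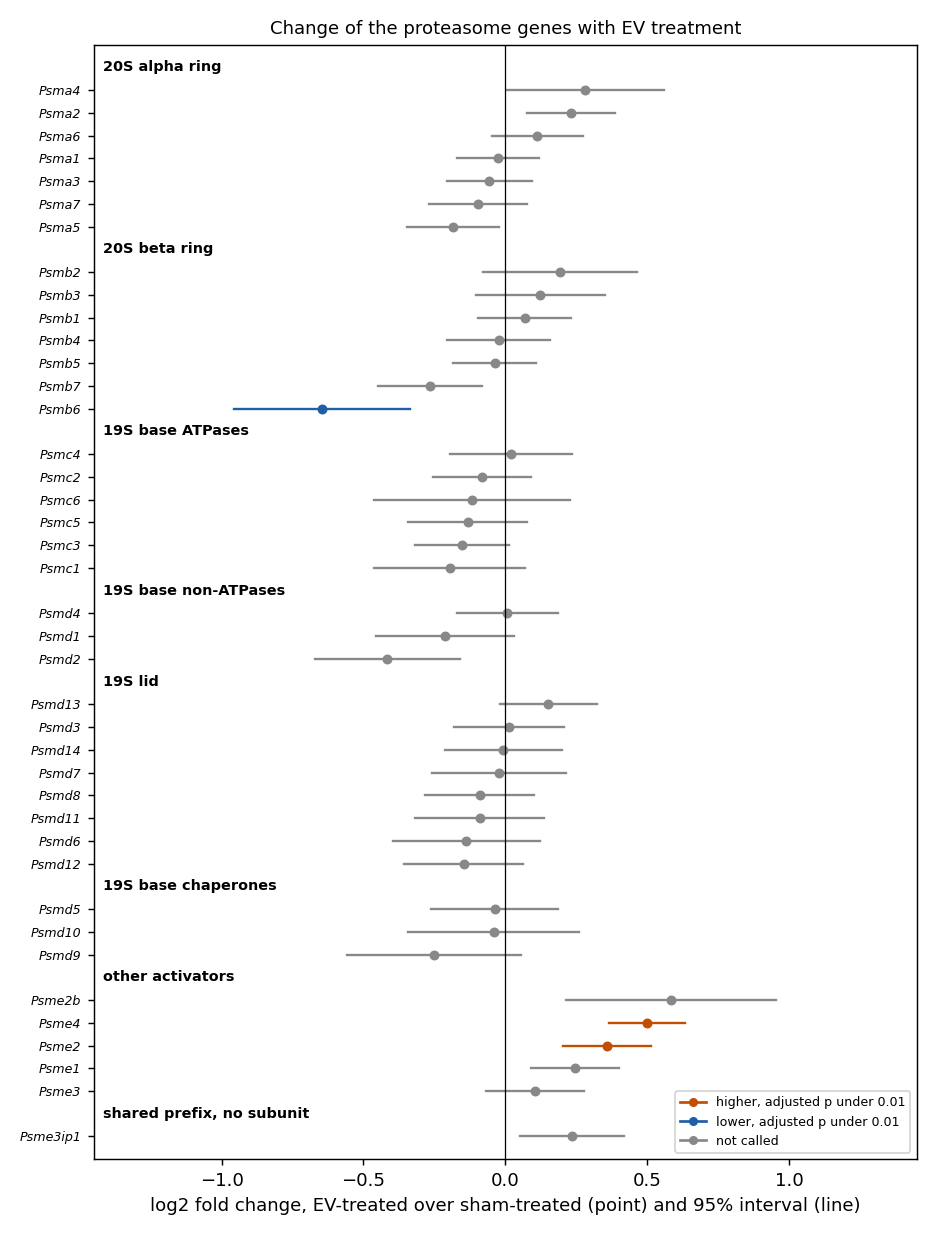
Log2 fold change of EV- over sham-treated libraries (horizontal axis; point) with its 95% interval (line) for the members by role, from 3 libraries a group. Psme4 and Psme2 were called higher and Psmb6 lower, while the points of the other subunits of the 20S core and the 19S cap lie between -0.42 and 0.28. Psmb11 and Psmc3ip, with wide intervals, and Psma8, which was not tested, are left out.

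The outer alpha rings of the 20S core, which gate the entry to the barrel, passed the test in 0 of the 7 genes tested (median log2FC -0.03), and DESeq2 and limma-voom also called 0. At an unadjusted p under 0.05, 2 were higher and 1 was lower. Psma4, the highest of them, had 724, 978 and 1013 normalized counts in sham replicates 1 to 3 and 1065, 1091 and 1140.2 in EV replicates 1 to 3. The groups did not overlap, but sham replicate 1 was far below the rest, and the log2FC was 0.28 (SE 0.124, adjusted p = 0.106). Psma5, the lowest, had 1559, 1435 and 1501 in sham and 1267, 1359 and 1333 in EV-treated libraries, a log2FC of -0.18 (SE 0.0729, adjusted p = 0.0775). All its EV-treated libraries were below the sham-treated ones, although 61% of the 31-base words of its transcripts also occur in other genes, mostly Gm8394, so that its counts are uncertain. The other alpha subunits had adjusted p-values of 0.0251 (Psma2), 0.255 (Psma6), 0.373 (Psma7), 0.561 (Psma3) and 0.795 (Psma1). Summed over Psma1 to Psma7, normalized counts were 11557 ± 452 (SD, n = 3) in sham- and 11872 ± 228 (SD, n = 3) in EV-treated libraries, and the groups overlapped.

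The inner beta rings held the 1 subunit that fell. Psmb6 (chr11:70525367-70527858 on GRCm38), the beta1 subunit with the caspase-like site, had 1541, 2093 and 2148 normalized counts in sham and 1032, 1347 and 1306 in EV-treated libraries. Every EV-treated library was below every sham-treated one, and the low library of each group was replicate 1. The log2FC was -0.65 (95% interval -0.96 to -0.34, SE 0.139, adjusted p = 0.00486). The call was kept in 8 of the 13 alternative fits, but in only 1 of the 6 that leave out a library. Without sham replicate 1 the log2FC was -0.78 (adjusted p = 0.000583), whereas with any 1 of the other 5 left out it lay between -0.71 and -0.53, with adjusted p-values of 0.0117 to 0.0254. The replicates 1 in which Psmb6 was low also had the lowest macrophage sums of their group, and the part of this in the difference was not tested.

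Psmb7, the beta2 subunit with the trypsin-like site, had 1446, 1498 and 1708 normalized counts in sham and 1297, 1278 and 1292 in EV-treated libraries. The groups did not overlap, and its log2FC of -0.27 (SE 0.0817) had an adjusted p of 0.0285, which is not past the threshold. Psmb5, the beta5 subunit with the chymotrypsin-like site, had 1771, 1843 and 1911 in sham and 1811, 1802 and 1768 in EV-treated libraries. These groups overlapped, with a log2FC of -0.04 (95% interval -0.18 to 0.11, adjusted p = 0.697). The counts of Psmb5 are uncertain, since 71.7% of its 31-base words also occur in other genes, mostly Gm3375, against 6.24% of those of Psmb6. The thymus subunit Psmb11, the highest of the beta genes, had only 33.3, 12.3 and 35.2 in sham and 39.96, 37.7 and 33.1 in EV-treated libraries (log2FC 0.45, SE 0.553, adjusted p = 0.576). The subunits without an active site had adjusted p-values of 0.251 (Psmb2), 0.390 (Psmb3), 0.518 (Psmb1) and 0.850 (Psmb4). The summed counts of Psmb1 to Psmb7 were 12656 ± 764 (SD, n = 3) and 11964 ± 385 (SD, n = 3) and overlapped. The ratio of summed alpha to summed beta counts within a library did not overlap, with 0.950, 0.847 and 0.948 in sham and 1.01, 0.987 and 0.982 in EV-treated libraries. Psmb6 is part of the beta sum, with means of 1927 in sham- and 1228 in EV-treated libraries. The ratio is therefore not separate from the fall of Psmb6 and does not show a shift of the whole ring.

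**Figure D2:**
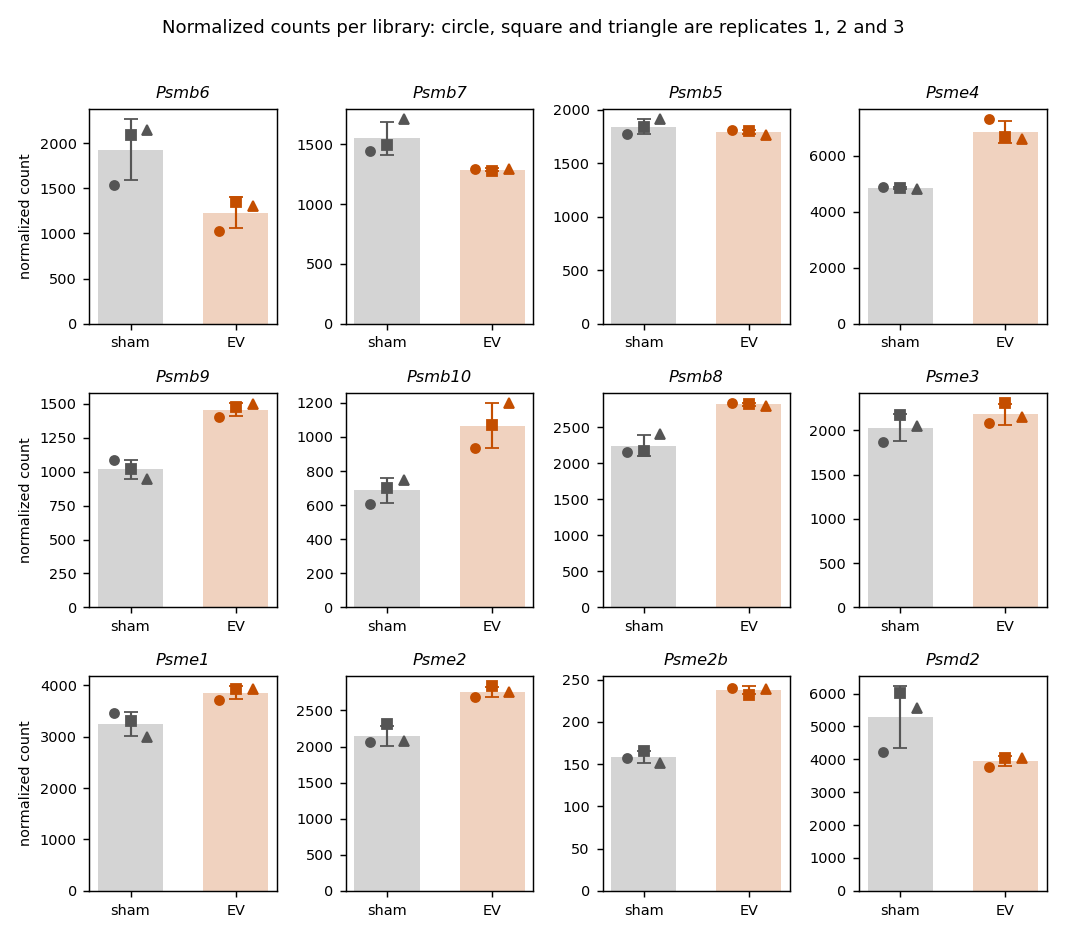
Normalized counts (vertical axis, each panel from 0) of the active-site subunits, their immunoproteasome counterparts, the activators and Psmd2, with circle, square and triangle for replicates 1, 2 and 3, bars for the mean and error bars for the SD of 3 libraries. Psmb6 and Psmb7 are lower and Psmb8, Psmb9, Psmb10, Psme1, Psme2, Psme2b and Psme4 higher in every EV-treated than in every sham-treated library, while the groups overlap in Psmb5 and Psme3.

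The immunoproteasome subunits that replace these 3 rose in 3 of 3 cases, where 12.1% of all genes tested were higher. Psmb9, the counterpart of Psmb6, had 1084, 1023 and 944 normalized counts in sham and 1403, 1474 and 1498 in EV-treated libraries (log2FC 0.52, SE 0.0812, adjusted p = 0.000709). Psmb10, the counterpart of Psmb7, had 608, 702 and 747 in sham and 933, 1071 and 1199 in EV-treated libraries (log2FC 0.64, SE 0.119, adjusted p = 0.00205). Psmb8, the counterpart of Psmb5, had 2153, 2170.4 and 2409 in sham and 2829, 2823 and 2791 in EV-treated libraries (log2FC 0.33, SE 0.0670, adjusted p = 0.00364). In none of the 3 did the groups overlap, and all EV-treated libraries lay above all sham-treated ones in 24.8% of all genes tested. Psmb9 kept its call in all 13 alternative fits, Psmb10 in 11 and Psmb8 in 8. Without EV replicate 2 or 3, Psmb10 had an adjusted p of 0.0117 or 0.0154, and the range of adjusted p-values for Psmb8 over the 13 fits was 0.000149 to 0.0613.

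A ratio of 2 genes within a library does not depend on the scaling between libraries. There were 0.704, 0.489 and 0.440 counts of Psmb9 per count of Psmb6 in sham and 1.36, 1.09 and 1.15 in EV-treated libraries. The ratio of Psmb10 to Psmb7 was 0.421, 0.469 and 0.437 in sham and 0.720, 0.838 and 0.928 in EV-treated libraries. That of Psmb8 to Psmb5 was 1.22, 1.18 and 1.26 in sham and 1.56, 1.57 and 1.58 in EV-treated libraries. All 3 ratios were higher in every EV-treated library, 2.21-fold, 1.87-fold and 1.29-fold by their means. Both the rise of the immunoproteasome gene and the lower value of its counterpart enter the first and the second, and the third held with nearly equal Psmb5. As ratios of counts not divided by transcript length, they show change between libraries, not which subunit was more abundant. They were chosen with the values known and are given without a test.

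**Figure D3:**
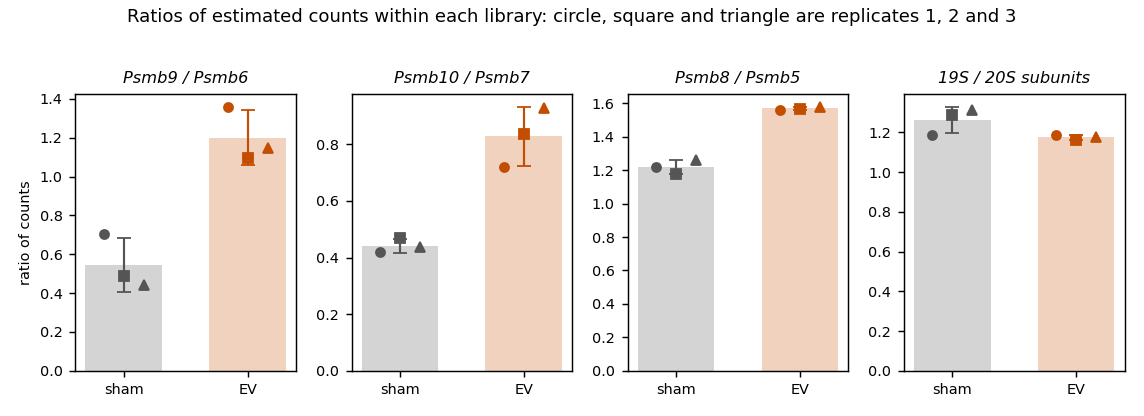
Ratio of estimated counts within each library (vertical axis, from 0) for each immunoproteasome gene over its constitutive counterpart and for the summed 19S over the summed 20S subunits, with circle, square and triangle for replicates 1, 2 and 3, bars for the mean and error bars for the SD of 3 libraries. The first 3 ratios are higher in all EV-treated libraries, while the 19S to 20S ratio overlaps between the groups.

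The 6 ATPases of the 19S base, which unfold the substrate and open the core, had 0 calls, also with DESeq2 and limma-voom and at an unadjusted p under 0.05, and a median log2FC of -0.12. Psmc4, the highest of them, had 1115, 1379 and 1200.5 normalized counts in sham and 1165, 1299 and 1279 in EV-treated libraries. Psmc1, the lowest, had 1354, 1826 and 1899 in sham and 1431, 1431 and 1564 in EV-treated libraries. Both overlapped between the groups, with log2FCs of 0.02 (SE 0.0958, adjusted p = 0.892) and -0.20 (SE 0.119, adjusted p = 0.236). In Psmc1 the overlap came from sham replicate 1 alone, and without that library it was lower (log2FC -0.33, adjusted p = 0.00646). Without sham replicate 2 or 3 instead, its log2FC was -0.14 (adjusted p = 0.466) or -0.10 (adjusted p = 0.592). Of the 31-base words of Psmc1, 32.2% also occur in other genes, mostly Gm9575. The adjusted p-values of Psmc2, Psmc3, Psmc5 and Psmc6 were 0.453, 0.141, 0.315 and 0.599.

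The other subunits of the base are the scaffolds Psmd1 and Psmd2 and the ubiquitin receptor Psmd4, and 0 of these 3 were called (1 lower, Psmd2, at an unadjusted p under 0.05 and by DESeq2, 0 by limma-voom). Psmd2, the lowest, had 4219, 6027 and 5573 normalized counts in sham and 3766, 4049 and 4032 in EV-treated libraries. The groups did not overlap, sham replicate 1 lay nearest to the EV-treated libraries, and the log2FC of -0.42 (SE 0.114) had an adjusted p of 0.0172. Without sham replicate 1 it was -0.55 (adjusted p = 0.000144), and Psmd2 was also called under 4 of the other alternatives, with adjusted p-values over all 13 of 0.000144 to 0.0675. Of the 31-base words of Psmd2, 31.6% also occur in other genes, mostly Gm5422. Psmd4, the highest, had 1953, 2306 and 2125 in sham and 2044, 2097 and 2273 in EV-treated libraries, groups that overlapped (log2FC 0.0077, adjusted p = 0.952). Psmd1 had an adjusted p of 0.164, and without sham replicate 1 a log2FC of -0.33 (adjusted p = 0.0082). Without sham replicate 2 or 3 instead, its log2FC was -0.16 (adjusted p = 0.362) or -0.13 (adjusted p = 0.446).

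The lid, in which Psmd14 is the enzyme that removes ubiquitin chains, had 8 subunits tested and 0 called by edgeR, DESeq2 or limma-voom or at an unadjusted p under 0.05, with a median log2FC of -0.06 and all 8 intervals within 0.5 of no change. Psmd13, the highest, had 1663, 1675 and 1618 normalized counts in sham and 1694, 1815 and 1997 in EV-treated libraries. Psmd12, the lowest, had 825, 874 and 923 in sham and 807, 730.3 and 831 in EV-treated libraries. The groups of Psmd13 did not overlap and those of Psmd12 did, with log2FCs of 0.15 (SE 0.0768, adjusted p = 0.158) and -0.15 (SE 0.0941, adjusted p = 0.264). The other 6 subunits had adjusted p-values from 0.400 (Psmd6) to 0.961 (Psmd14). The 17 subunits of the cap among the members leave out Adrm1 and Sem1, which have other names. Over these 17, the summed normalized counts were 27440.0, 31778 and 32600 in sham and 27468, 28215 and 28297 in EV-treated libraries. Sham replicate 1 lay below all EV-treated libraries and the other sham-treated libraries above them. The ratio of 19S to 20S counts was 1.26 ± 0.0669 (SD, n = 3) in sham- and 1.17 ± 0.0126 (SD, n = 3) in EV-treated libraries and overlapped.

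The chaperones that help to assemble the 19S base had 0 of 3 calls, also with DESeq2 and limma-voom and at an unadjusted p under 0.05. Psmd9, the lowest, had 432, 549 and 429 normalized counts in sham and 388, 395 and 401 in EV-treated libraries, which did not overlap (log2FC -0.25, SE 0.138, adjusted p = 0.191). Psmd5, the highest, had 1048, 1139 and 1327 in sham and 1215, 1095 and 1109.7 in EV-treated libraries, which overlapped (log2FC -0.04, adjusted p = 0.807). Psmd10 had an adjusted p of 0.845.

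The activators other than the 19S cap held both members that rose (2 of 5, against 12.1% of all genes tested, median log2FC 0.36). Psme4 (chr11:30771726-30880361), which encodes the single-chain activator PA200, had 4878, 4829.9 and 4824 normalized counts in sham and 7293, 6671 and 6578 in EV-treated libraries. The sham-treated libraries were nearly equal and every EV-treated library was far above them, with EV replicate 1 the highest. The log2FC was 0.50 (95% interval 0.36 to 0.63, SE 0.0605, adjusted p = 0.000127), and the call was kept in all 13 alternative fits, with log2FCs of 0.35 to 0.53. Against the core, there were 20.03 ± 0.926 (SD, n = 3) counts of Psme4 per 100 counts of the 20S subunits in sham- and 28.8 ± 2.38 (SD, n = 3) in EV-treated libraries.

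Psme1 and Psme2 encode the PA28-alpha and PA28-beta subunits, which form 1 mixed ring and lie 5911 bases apart on chromosome 14. Psme2 (chr14:55587441-55591113) had 2059, 2313 and 2078 normalized counts in sham and 2684, 2832 and 2751 in EV-treated libraries. All EV-treated libraries were higher, with a log2FC of 0.36 (95% interval 0.20 to 0.51, SE 0.0690, adjusted p = 0.00255). Without EV replicate 2 or 3 its adjusted p was 0.0169 or 0.0135, and with scaling by library size alone 0.0414. Of the 31-base words of Psme2, 33.5% also occur in other genes, mostly Psme2b. Psme1 (chr14:55578123-55581529) had 3463, 3297 and 2999.97 in sham and 3721, 3920.5 and 3931 in EV-treated libraries. These groups did not overlap either, but the log2FC of 0.25 (SE 0.0697) had an adjusted p of 0.0202, which is not past the threshold. It was 0.00617 without sham replicate 1 and 0.00569 with DESeq2. These were the only 2 of the 13 alternative fits that called Psme1, with adjusted p-values of up to 0.295.

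In Psme2b, on chromosome 11, 78.4% of the 31-base words also occur elsewhere, mostly in Psme2, so that its counts may be reads of Psme2. It had 158, 165 and 152 normalized counts in sham and 241, 232 and 239 in EV-treated libraries, the highest log2FC of the activators (0.58, SE 0.166, adjusted p = 0.0203). With the counts of both genes summed before the fit, a step chosen after the data were seen, the log2FC of Psme2 was 0.38 (adjusted p = 0.00173). Psme3, the PA28-gamma activator of the nucleus, had 1869, 2173 and 2055 in sham and 2083, 2312 and 2151 in EV-treated libraries. These overlapped, with a log2FC of 0.10 (95% interval -0.07 to 0.28, adjusted p = 0.341). Per 100 counts of the 20S subunits, Psme3 had 8.08, 8.796 and 8.28 counts in sham and 9.0004, 9.52 and 8.93 in EV-treated libraries, which did not overlap. The 20S sum includes Psmb6, which fell, so this ratio is not a separate sign of a change in Psme3.

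The members that share only the prefix were not called. Psme3ip1, which encodes a protein that binds PA28-gamma, had 910.04, 946 and 968 normalized counts in sham and 1125, 1047 and 1152 in EV-treated libraries (log2FC 0.23, adjusted p = 0.0474). Psmc3ip, which encodes a partner of the meiotic recombinases, had low counts, with 26.1, 11.03 and 4.86 in sham and 37.0, 44.6 and 23.5 in EV-treated libraries. The groups of Psme3ip1 did not overlap and those of Psmc3ip did, and the interval of the latter reached from -0.25 to 2.83 (log2FC 1.29, adjusted p = 0.179).

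Levels were compared between genes as normalized counts per kilobase of the principal transcript, over 36 proteasome subunits and activators. Psme1 had the highest mean level in both groups, 2925 per kilobase in sham- and 3469 in EV-treated libraries. Psmb6 went from the second place (2415) to place 10 (1539), and Psme4, with a transcript of 6.491 kilobases, from place 28 (746) to place 20 (1055). Neighbours in this order were often close, such as Psmb7 (1337) and Psmb1 (1336) in sham-treated libraries, and a place in it depends on the transcript chosen.

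Of 39 other genes of the ubiquitin-proteasome system, in lists chosen with earlier results known, 38 were tested, with 7 higher and 3 lower. These are 26.3% of the 38, near the shares of all genes tested (12.1% higher and 11.6% lower), and include the 3 immunoproteasome genes. The median log2FC was -0.0014, and the 19S subunits with other names, Adrm1 and Sem1, were not called (log2FCs -0.06 and 0.14). Of the 7 assembly factors in the table, 0 were called (1 higher and 2 lower at an unadjusted p under 0.05, and 1 lower by DESeq2 and by limma-voom). They ranged from Psmg3, a chaperone of the alpha ring, at -0.45 (adjusted p = 0.0831) to the proteasome inhibitor Psmf1 at 0.31 (adjusted p = 0.0317).

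Among the enzymes and shuttles that work at the proteasome, 1 rose and 2 fell of 11. Zfand2a, which encodes the stress-induced AIRAP, had 939.8, 1529 and 1442 normalized counts in sham and 648, 669 and 711 in EV-treated libraries. The groups did not overlap, and Zfand2a was the lowest of all 38 genes (log2FC -0.94, SE 0.162, adjusted p = 0.00125). Zfand5, which encodes an activator of the 26S proteasome, rose (0.28, adjusted p = 0.0074). It was called in only 6 of the 13 alternative fits, with log2FCs of 0.13 to 0.33 and adjusted p-values of up to 0.153. The deubiquitinase Usp14 had a log2FC of -0.48, just outside the threshold (adjusted p = 0.0103).

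Of the 9 genes that act in the transcription of proteasome genes, 1 rose and 1 fell. Ngly1, the enzyme that removes glycans from NRF1 and so takes part in its activation, had 1593, 1711 and 1697 normalized counts in sham and 3472, 3222 and 3109 in EV-treated libraries. It was the highest of the 38 genes, with no overlap between the groups (log2FC 0.97, SE 0.0693, adjusted p = 3.85e-06). Keap1, which holds NRF2 back, fell (-0.29, adjusted p = 0.0079), a call kept in 7 of the 13 alternative fits and in only 1 of the 6 that leave out a library (adjusted p-values of up to 0.057). Maff was the lowest of the list without passing the test (-0.29, adjusted p = 0.309). The factors themselves were not called: Nfe2l1 (NRF1) had a log2FC of 0.09 (95% interval -0.06 to 0.25, adjusted p = 0.337) and Nfe2l2 (NRF2) of -0.0087 (95% interval -0.14 to 0.13, adjusted p = 0.929).

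Of the 6 ubiquitin genes and ubiquitin-activating enzymes, 2 rose. Among them was Ubb (log2FC 0.26, adjusted p = 0.00449), whose counts are uncertain, since 50.3% of its 31-base words occur in other genes. Ubb was called in 6 of the 13 alternative fits, with adjusted p-values of up to 0.0990. Uba6 was the lowest, with a log2FC of 0.0107 (adjusted p = 0.954).

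**Figure D4:**
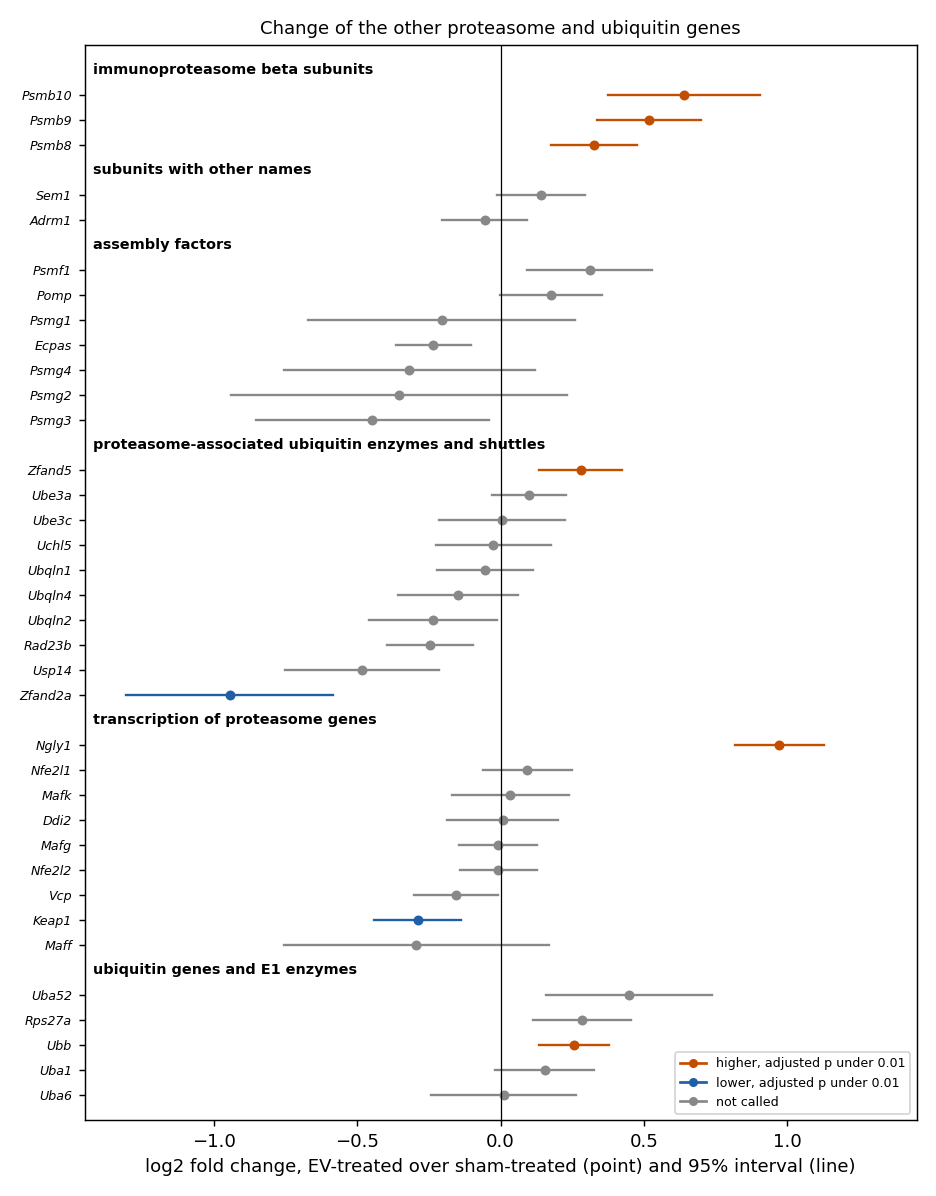
Log2 fold change of EV- over sham-treated libraries (horizontal axis; point) with its 95% interval (line) for other genes of the ubiquitin-proteasome system by role, from 3 libraries a group. Ngly1 (0.97) and the 3 immunoproteasome genes are among those called higher, and Zfand2a (-0.94) is the lowest of those called lower.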

How the data were processed

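Eosinophil cultures, 3 sham-treated and 3 EV-treated, were profiled by bulk RNA sequencing and grouped by the sample labels. Per the study's methods and the submitters' processing notes, the authors checked reads with FastQC, trimmed them with Cutadapt, estimated gene counts with Salmon and compared groups with DESeq2. The notes name the build mm10, while tool versions, the annotation and strand are not given in the sources used here. Reads of overlapping or near-identical genes could therefore be assigned to either. The authors deposited estimated counts for 16254 genes, used here, and also normalized values and their own comparison (fold changes and p-values), not used here.

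The estimated counts were rounded and fitted over 13498 genes with edgeR 4.0.16 (R 4.3.3; TMM scaling, filterByExpr, quasi-likelihood test), with Benjamini-Hochberg adjustment over all of them and a threshold of 0.01. For normalized counts, rounded counts were scaled by effective (TMM) library sizes whose geometric mean was set to 1. Standard errors were derived from the F statistic, as the absolute log2 fold change over its square root. The scripts were tested on simulated data. With 23697620 to 37874426 counts per library, the spread between cultures more than counting sets the precision for genes with high counts. For genes with few counts, counting adds to the uncertainty, as in Psmc3ip with 29, 9 and 4 estimated counts in sham replicates 1 to 3. Chi-square per gene between replicates of the same group was 8.73 to 33.2, so that the libraries within each group were distinct. An exact permutation test of 3 against 3 cannot go below a two-sided p of 0.1.

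The members, lists, promoter motifs and ratios were chosen with earlier results of these data known. Values in every library are given for the active-site subunits, Psme1 to Psme4, and the highest and lowest member of each group of 3 or more tested. Values in every library of other genes were chosen after they were seen. A few genes of the lists enter the counts but have no result given here. Loci, transcript lengths and shared words come from GENCODE vM21 (GRCm38) and promoters from RefSeq. The alternatives were other scalings, no filter, DESeq2 1.42.0, limma-voom (limma 3.58.1), the replicate number as a block, a threshold of 0.05, leaving out each library and, added after the data were seen, summing Psme2 and Psme2b.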

Additional observations from a re-analysis of the deposited data

How the results depend on the processing

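With library size alone as scaling, which shifts the median log2 fold change of all genes by -0.149, 1 member was higher and 5 were lower, with a member median of -0.17, and of the other genes of the system 4 were higher and 7 lower. Relative to that shift the members moved little. Members higher numbered 6 at an adjusted p under 0.05 and 1 to 3 with a library left out. Members lower numbered 2 with upper quartile scaling, DESeq2 or the replicate block, 3 at 0.05 and 0 to 4 with a library left out. Of the other genes of the system, 3 to 7 were higher with a library left out, and those lower numbered 6 with upper quartile scaling or at 0.05, 5 with DESeq2, 1 with no filter on low counts and 1 to 4 with a library left out. Over all genes, 1036 were higher with library size alone and 2478 lower at 0.05, and 1071 were higher and 1018 lower without EV replicate 3 and 1044 lower without EV replicate 2, against 1632 and 1572. A fit without a library has fewer samples. Psme4, Psmb9, Ngly1 and Zfand2a kept their calls in all 13 alternative fits.

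The sign of the log2 fold change differed from that reported in at least 1 of the 13 fits for 16 of the 42 members and 12 of the 38 other genes, none of them called in any fit, and with reported values within 0.137 and 0.206 of 0. Among the genes followed by the rule for named genes, these were Psmc4 (-0.025 with upper quartile scaling, -0.129 with library size alone, and -0.0401 to 0.110 with a library left out), Psmd4 (-0.038, -0.142, and -0.0445 to 0.0695), Psmd5 (-0.107 to 0.0697 with a library left out), Uba6 (-0.0344, -0.138, and -0.0444 to 0.0665) and, with library size alone, Psme3 (-0.0455) and Sem1 (-0.00806). The cause was not tested.

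The groups share replicate numbers, and the labels do not say whether a shared number means a shared culture. The deviations of same-numbered libraries from their group means correlated with r of 0.0371 to 0.117. For libraries of different numbers r was -0.116 to 0.0487. These values do not settle whether the libraries were paired, and the main fit used no pairing. In the fit with a replicate block, the same 2 members were higher and 2 were lower, Psmd2 joining Psmb6. Psmb6 had a log2 fold change of -0.64 in that fit (adjusted p = 1.42e-05). Of the 6 libraries, 5 correlated best with their own number.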
